A study of Mus musculus with 4 samples.

Results

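The 38 genes described here are immediate early genes and heat shock genes that are known to respond to tissue dissociation. They were taken by symbol from the 32286 genes of the deposited tables, and all 38 were found. By role they are 6 AP-1 factors, 3 EGR factors, 3 orphan nuclear receptors, 3 KLF factors, Myc and Irf1, 5 feedback inhibitors, 7 growth and damage response genes, Rhob and Ccn1, and 7 heat shock chaperones. RNA of single cells from mouse popliteal vessels was counted with a droplet kit whose random tags (unique molecular identifiers, UMIs) mark each captured molecule. The libraries called PLV replicates 1 and 2 held popliteal lymphatic vessels, each from 1 pool of 2 mice, minced and digested for 30 minutes with collagenase I, Dispase II, DNase and Liberase. A further library, called the mixed library here, held cells of popliteal lymphatic vessels and of blood vessels (BV in the labels) from 1 pool of 2 mice, digested for 60 minutes with collagenase I and Dispase II alone and then stained with hashtag antibodies. All mice were adults of the WT1GFPCre strain, in which EGFP/cre sits at the Wt1 locus, crossed with the Ai9-tdT reporter strain. All were anaesthetised with K/X and had Evans blue dye injected into the footpad before the vessels were taken. The hashtags did not separate the vessels, so the mixed library was used as 1 sample of both. Vessel, digestion, staining, mice and Cell Ranger version therefore differed together between PLV and mixed, and their parts cannot be told apart. The pools also differed in Xist, with 6259 and 2099 UMIs in the PLV libraries and 1 in the mixed library.

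Immediate early genes are transcribed within minutes of a stimulus by factors that are already present in the cell, such as serum response factor with its partners, CREB and NF-kappaB. Their products include transcription factors (FOS, JUN, EGR, KLF and NR4A proteins) and inhibitors that end the signal again (dual specificity phosphatases, the mRNA decay factor ZFP36, SOCS3 and the NF-kappaB inhibitor). Heat shock genes are driven by HSF1, which is released when unfolded proteins occupy the chaperones that hold it back. Warm enzymatic digestion is known to induce both sets, so in dissociated tissue their RNA can reflect the preparation as well as the living vessel.

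After filtering, the PLV libraries held 1909 and 516 cells and the mixed library 994, with 9577642, 3390010 and 7770796 UMIs. No kept barcode was shared between libraries. Cell classes were named from marker lists, and 6 had at least 10 cells in every library: muscle-like, pericyte-like, fibroblast-like, lymphatic endothelial-like, blood endothelial-like and Schwann-like cells. In muscle-like cells all 10 muscle markers were detected in each library. UMIs were summed per library and class, and the sums held between 121533 UMIs (pericyte-like, PLV replicate 2) and 2558724 UMIs (muscle-like, mixed). Levels below are CPM, the usual scaling of a gene's UMIs by the UMI total of the class, adjusted between libraries with TMM factors, and differences are log2 of mixed over PLV with the standard error from edgeR's quasi-likelihood fit. With 2 PLV libraries and 1 mixed library, the test assumes that the mixed library varies as the PLV libraries do, and its p-values cover the spread between 2 pools of mice. A gene was called at a Benjamini-Hochberg adjusted p under 0.05 over all genes tested in that class.

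Of the 38 genes, 32 were called in at least 1 class: 22 were higher in the mixed library wherever they were called, 9 were lower, and Klf4 was higher in pericyte-like and lower in blood endothelial-like cells. Egr1, Nr4a3, Myc, Dusp1, Zfp36 and Ier3 were called in no class. The share of all genes called in at least 1 class was not counted, so 32 of 38 has no background beside it, and the shares below are per class. In muscle-like cells 14 of 37 tested members were higher in the mixed library and 6 lower, where 15.6% of all genes tested were called (8.22% higher, 7.39% lower). In pericyte-like cells 15 of 34 were higher and 1 lower, against 3.25% of all genes (2.49% higher, 0.755% lower). In fibroblast-like cells 7 of 37 were higher and 5 lower, against 11.6% of all genes (7.61% higher, 4.02% lower). In lymphatic endothelial-like cells 10 of 37 were higher and none lower, against 1.12% of all genes (0.585% higher, 0.54% lower). Blood endothelial-like cells had 6 of 38 higher and 1 lower, against 2.93% (1.6% higher, 1.33% lower), and Schwann-like cells 6 of 32 higher and 3 lower, against 4.05% (2.38% higher, 1.66% lower). The median log2 difference of the members tested was 0.25, 1.01, 0.24, 0.83, 0.11 and 0.19 in these classes in the same order, and that of all genes lay between -0.05 and 0.00. The members not tested because of low counts were Dusp2 in muscle-like, pericyte-like, fibroblast-like and Schwann-like cells, Nr4a3 in pericyte-like, lymphatic endothelial-like and Schwann-like cells, Egr2 and Nr4a2 in pericyte-like cells, and Myc, Gadd45g, Hsph1 and Hspb1 in Schwann-like cells. Without TMM factors the median of all genes lay between -0.14 (blood endothelial-like) and -0.46 (fibroblast-like) on the log2 scale, 52 of the 74 called differences still passed, and none changed direction. With DESeq2, 27 of the 69 that it tested passed, none of them in pericyte-like, blood endothelial-like or Schwann-like cells. With each cell drawn down to 1500 UMIs, 23 of 67 passed and none changed direction.

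**Figure D1:**
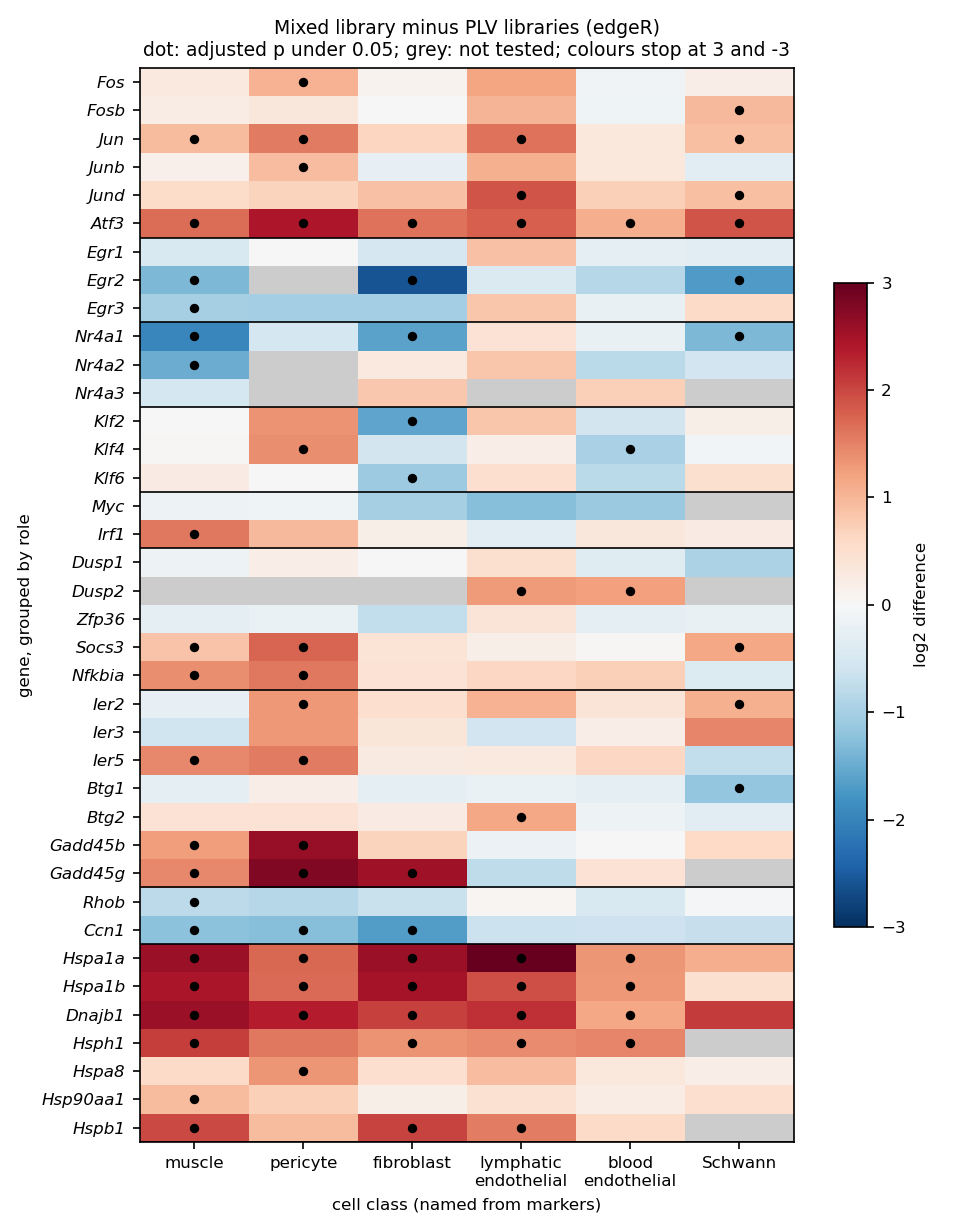
Log2 difference (mixed over PLV, edgeR) of each of the 38 genes in each of the 6 classes, with genes grouped by role; a dot marks an adjusted p under 0.05, grey cells were not tested, and the colours stop at 3 and -3. Atf3 has a dot in all 6 classes and Hspa1a and Dnajb1 in 5, all higher in the mixed library, no heat shock gene has one in Schwann-like cells, and Nr4a1, Egr2 and Ccn1 are called lower in muscle-like and fibroblast-like cells.

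The PLV libraries also differed from each other. In muscle-like cells 36 of 37 tested members were higher in PLV replicate 1 than in PLV replicate 2, with a median log2 difference (replicate 2 over 1) of -0.80, and 11 were more than 2-fold apart. The same counts were not made over all genes. Clusters with Pln among their leading genes, described below, held 216 of 356 muscle-like cells in PLV replicate 1 and 54 of 111 in PLV replicate 2. The part of this make-up in the gap was not tested. In the other classes this median lay between -0.24 (blood endothelial-like) and 0.34 (fibroblast-like). As a share of all UMIs, the 31 immediate early members took 2.91% in muscle-like cells of PLV replicate 1, 1.66% in PLV replicate 2 and 2.22% in the mixed library, so the mixed library lay between the PLV pools. The 7 heat shock members took 0.297% and 0.191% in the PLV libraries and 0.630% in the mixed library. In lymphatic endothelial-like cells the immediate early share was 2.98% and 2.52% in PLV and 4.51% in the mixed library, and the heat shock share was 0.198% and 0.203% against 0.396%. For the heat shock members the mixed library lay above both PLV libraries in each of the 6 classes. The immediate early share of fibroblast-like cells was lower in the mixed library (1.83% and 2.04% against 1.39%). These shares carry no TMM factors. Those of fibroblast-like cells were 1.18, 1.08 and 0.783, and with them the median log2 difference of the members tested there was 0.24. The lower unscaled share therefore does not show lower TMM-adjusted levels.

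**Figure D2:**
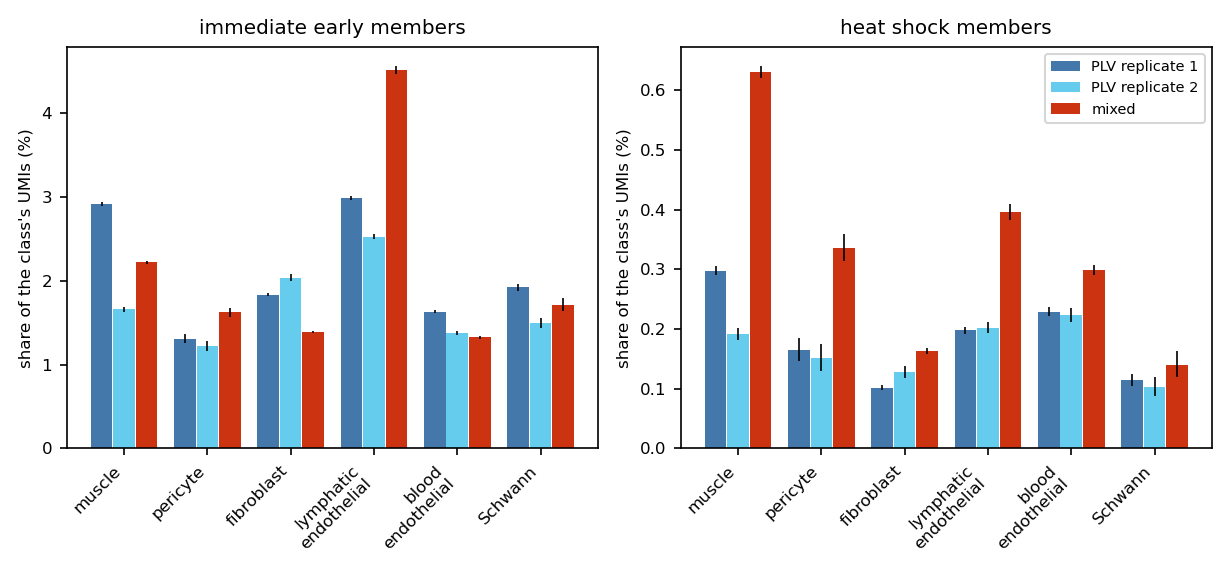
Percentage of all UMIs of each class that came from the 31 immediate early members and from the 7 heat shock members, 1 bar per library with its exact 95% interval for counting error. The heat shock share of the mixed library (0.140% to 0.630%) is the highest of the 3 libraries in each class, whereas the immediate early share is not.

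Heat shock chaperones were called higher in the mixed library in 5 of the 6 classes. Hspa1a and Hspa1b encode the inducible HSP70, Dnajb1 and Hsph1 its cochaperones, Hspa8 the constitutive HSC70, Hsp90aa1 the inducible HSP90 and Hspb1 the small chaperone HSP27. Of the 7, 6 were called in muscle-like cells, 4 in pericyte-like, 5 in fibroblast-like, 5 in lymphatic endothelial-like and 4 in blood endothelial-like cells, all higher in the mixed library. Of the 5 tested in Schwann-like cells, none was called with edgeR and 1 had an unadjusted p under 0.05 (DESeq2 called no member there). In that class 6 of the 7 lay above both PLV libraries and 1 between them. The promoters of the members that hold the HSF1 half-site pair GAANNTTC are shown because 3 of the 4 belong to heat shock chaperones called in several classes. Each is the 250 bases before the RefSeq start on GRCm38.p6, 5′ to 3′ on the gene's strand, with GAANNTTC in capitals. They lie at chr17:34972157-34972406 (Hspa1a, minus strand), chr17:34959239-34959488 (Hspa1b, minus strand), chr5:135887669-135887918 (Hspb1, plus strand) and chr4:95052223-95052472 (Jun, minus strand).
Hspa1a: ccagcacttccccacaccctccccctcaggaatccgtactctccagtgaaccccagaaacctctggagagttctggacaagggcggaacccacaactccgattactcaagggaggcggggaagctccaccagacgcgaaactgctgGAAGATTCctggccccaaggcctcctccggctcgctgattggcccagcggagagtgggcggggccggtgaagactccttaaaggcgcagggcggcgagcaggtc
Hspa1b: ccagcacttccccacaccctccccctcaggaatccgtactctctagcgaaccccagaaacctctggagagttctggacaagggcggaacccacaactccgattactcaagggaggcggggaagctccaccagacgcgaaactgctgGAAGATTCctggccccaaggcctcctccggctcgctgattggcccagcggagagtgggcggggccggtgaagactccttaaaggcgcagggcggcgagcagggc
Hspb1: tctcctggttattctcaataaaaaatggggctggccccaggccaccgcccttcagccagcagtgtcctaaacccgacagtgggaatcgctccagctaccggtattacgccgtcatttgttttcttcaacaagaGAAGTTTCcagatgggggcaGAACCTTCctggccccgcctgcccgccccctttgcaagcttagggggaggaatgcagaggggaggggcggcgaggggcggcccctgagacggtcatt
Jun: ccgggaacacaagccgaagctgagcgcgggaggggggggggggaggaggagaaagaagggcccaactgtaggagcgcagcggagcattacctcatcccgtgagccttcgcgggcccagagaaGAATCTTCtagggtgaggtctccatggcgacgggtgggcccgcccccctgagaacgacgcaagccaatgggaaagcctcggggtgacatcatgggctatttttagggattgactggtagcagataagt
The Hspa1a and Hspa1b windows were equal at 247 of 250 positions, and the genes are near-identical copies, so reads may have been split between them and the levels of each are uncertain. GAANNTTC reads the same on both strands. Of the 38 members 32 had a window in the RefSeq table, and 4 of these held it, against 6.69% of 32851 promoter windows. The longer element, GAANNTTC followed directly by NNGAA, searched on both strands, was in none of the 32 and in 0.466% of all windows.

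Hspa1a in muscle-like cells was 295 and 164 CPM in PLV replicates 1 and 2 and 1400.2 CPM in the mixed library. The mixed library was 6.00-fold higher (log2 difference 2.59 ± 0.27 SE, edgeR adjusted p = 9.84e-20), far beyond the gap between the PLV libraries. Hspa1b followed at 269.6, 154 and 1170.1 CPM (5.43-fold, edgeR adjusted p = 4.24e-18). Both genes were also called in the other vessel wall classes. Fibroblast-like cells had 41.5, 55.3 and 283 CPM of Hspa1a, a 6.05-fold difference (edgeR adjusted p = 8.61e-06). Pericyte-like cells had 142, 138 and 473 CPM (3.30-fold, edgeR adjusted p = 0.00049). In blood endothelial-like cells the PLV libraries were far apart for Hspa1a, at 105 and 37.0 CPM, with 192 CPM in the mixed library (2.51-fold, edgeR adjusted p = 0.0108), and the log2 difference of 1.33 was 2.37 without PLV replicate 1 and 0.88 without PLV replicate 2. Schwann-like cells had 48.9, 62.8 and 118 CPM, and the log2 difference of 1.10 ± 0.58 SE was not called (edgeR adjusted p = 0.331).

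Dnajb1, the cochaperone that delivers substrates to HSP70, had 75.2 and 41.9 CPM in muscle-like cells of the PLV libraries and 369 CPM in the mixed library (5.98-fold, log2 difference 2.58 ± 0.24 SE, edgeR adjusted p = 2.81e-23). It was called in 5 of the 6 classes, with 5.08-fold in pericyte-like, 4.17-fold in fibroblast-like, 4.58-fold in lymphatic endothelial-like and 2.22-fold in blood endothelial-like cells. Schwann-like cells had 27.4, 37.7 and 136 CPM, which was not called (edgeR adjusted p = 0.0926). The Schwann-like sum of the mixed library held 121744 UMIs, and the largest log2 difference of a heat shock member in that class was 2.09. Hsph1, an HSP110 nucleotide exchange factor for HSP70, was 33.7, 8.62 and 105 CPM in muscle-like cells (4.19-fold, edgeR adjusted p = 5.96e-13). The PLV libraries were far apart there, and without PLV replicate 1 the log2 difference was 3.59 in place of 2.07, against 1.62 without PLV replicate 2. Hsph1 was also called in fibroblast-like (2.55-fold), lymphatic endothelial-like (2.66-fold) and blood endothelial-like cells (2.78-fold).

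Hspb1, abundant in muscle, was 528 and 369 CPM in muscle-like cells of the PLV libraries and 1779 CPM in the mixed library (3.94-fold, edgeR adjusted p = 5.75e-11). That log2 difference of 1.98 was 1.70 in the matched Hmcn2 clusters and 0.94 in the matched Pln clusters of muscle-like cells, described below (edgeR adjusted p = 6.16e-08 and 0.0315). In fibroblast-like cells it was 13.8, 90.1 and 169 CPM. There the fitted log2 difference of 2.02 ± 0.52 SE (edgeR adjusted p = 0.0124) became 0.90 without PLV replicate 1 and 3.57 without PLV replicate 2, so its size rests on which PLV pool is used. The constitutive Hspa8 was called in pericyte-like cells alone, at 642, 639 and 1637 CPM (2.50-fold, edgeR adjusted p = 0.000598). In muscle-like cells it was 1224, 712 and 1447 CPM, with an adjusted p of 0.158 from edgeR. In the matched Hmcn2 clusters Hspa8 was called, at 454, 400 and 1059 CPM (log2 difference 1.30, edgeR adjusted p = 0.000155). It was not called in the matched Pln clusters (0.69, edgeR adjusted p = 0.155). Hsp90aa1 was called in muscle-like cells alone, at 353, 399 and 720.3 CPM (1.92-fold, edgeR adjusted p = 0.00402).

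In lymphatic endothelial-like cells a few very deep cells carried much of this signal. Hspa1a there was 29.2, 25.4 and 236 CPM (8.46-fold, edgeR adjusted p = 9.43e-09), but in the mixed library 78.5% of its UMIs came from 3 cells, and 13 of 53 cells held any. Cells above 50000 UMIs held 45.5%, 22.4% and 57.6% of the class UMIs in PLV replicates 1 and 2 and the mixed library (12 of 192, 3 of 68 and 5 of 53 cells). Without them 5 of these 10 members were still called in this class, 3 others were newly called, and the median member difference fell from 0.83 to 0.36 on the log2 scale. Hspa1a then had a log2 difference of 0.68 (edgeR adjusted p = 0.467), Hspa1b 1.05 (0.0829), Hsph1 1.02 (0.118), Jun 0.48 (0.233) and Btg2 0.71 (0.127), none of them called. Dnajb1 (1.39, adjusted p = 0.0169) and Hspb1 (1.27, adjusted p = 0.0139) were still called by edgeR, as were Atf3 (0.99, adjusted p = 0.033), Jund (1.07, adjusted p = 0.0052) and Dusp2 (1.49, adjusted p = 0.0011). The newly called members were Fosb, higher in the mixed library (0.92, edgeR adjusted p = 0.019), and Gadd45b (-2.40, adjusted p = 0.00506) and Ccn1 (-1.27, adjusted p = 0.00248), both lower.

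The share of cells with at least 1 Hspa1a UMI was also highest in the mixed library in muscle-like and fibroblast-like cells. In muscle-like cells it was 59.0% (95% Clopper-Pearson interval 53.7 to 64.1%) and 54.1% (44.3 to 63.6%) in PLV and 82.8% (78.3 to 86.7%) in the mixed library. With each cell drawn down to 1500 UMIs it was 30.5%, 20.6% and 59.7% (348, 102 and 320 cells deep enough). In fibroblast-like cells it was 16.1%, 19.5% and 43.0%, and 7.67%, 5.71% and 23.0% at equal depth. These intervals cover counting error only. Schwann-like cells, at median depths of 1762.5, 3018 and 2598.5 UMIs against 4871, 6715 and 7420 in muscle-like cells, had 7.69%, 15.1% and 13.2%, and 8.45%, 7.89% and 10.3% at equal depth. At equal depth the lymphatic endothelial-like shares of 1.35%, 3.08% and 4.17% lay below the Schwann-like shares of the same library.

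Free RNA was measured in the mixed library from 185412 droplets with fewer than 50 UMIs, which together held 1000645 UMIs. Hspa1a was 237 CPM, Dnajb1 105 CPM, Atf3 621 CPM and Fos 940 CPM in these droplets. If every fibroblast marker UMI found in muscle-like cells came from free RNA, that RNA would account for 33.2% of the class and bring 78.5 CPM of Hspa1a, against 1263 CPM (unscaled) measured there. The same bound was 73.0 CPM against 419 in pericyte-like cells. In the other classes the bound was taken from muscle markers in place of fibroblast markers. It was 10.3 CPM against 222 in fibroblast-like, 35.4 against 179 in blood endothelial-like and 4.26 against 214 in lymphatic endothelial-like cells. For Atf3, with the same markers per class, the bound was 206 CPM against 2280 in muscle-like and 191 against 571 in pericyte-like cells. It was 92.7 against 265 in blood endothelial-like, 26.9 against 504 in fibroblast-like and 11.2 against 1592 in lymphatic endothelial-like cells. Schwann-like cells had 50.05 against 534. They held 3212 CPM of fibroblast markers and 682 CPM of muscle markers in the mixed library, so a bound from fibroblast markers would be higher there. The deposited PLV tables held no such droplets, so no bound is given for them. Summed fibroblast markers in muscle-like cells were 2283 and 1913 CPM in PLV and 3448 CPM in the mixed library (9, 8 and 10 of 10 markers detected), and summed erythroid markers were 643, 114 and 124 CPM. In blood endothelial-like cells the erythroid markers were 4003.5, 536 and 169 CPM (5, 4 and 4 of 5 detected), and in lymphatic endothelial-like cells the muscle markers were 1401 CPM, 246 CPM and 152 CPM (10, 8 and 5 of 10 detected), highest in PLV replicate 1 in both. Median mitochondrial shares in muscle-like cells were 4.72%, 4.94% and 3.90%. Their part in the heat shock and Atf3 differences was not tested beyond the bound.

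Among the AP-1 factors, which pair as FOS, JUN and ATF proteins on DNA, Atf3 was called in all 6 classes and always higher in the mixed library, though with DESeq2 it passed in fibroblast-like and lymphatic endothelial-like cells alone. Atf3 is a stress-induced member of the family. In muscle-like cells it was 1098 and 461 CPM in PLV and 2528 CPM in the mixed library (3.22-fold, log2 difference 1.69 ± 0.28 SE, edgeR adjusted p = 1.48e-07), or 2.46 without PLV replicate 1 and 1.19 without PLV replicate 2. Pericyte-like cells had 167, 48.5 and 645 CPM (5.37-fold, edgeR adjusted p = 1.27e-08), and the log2 difference of 2.42 became 3.69 without PLV replicate 1 and 1.92 without PLV replicate 2. The mixed library was above both PLV libraries in each class. The differences were 3.11-fold in fibroblast-like (233, 176 and 644 CPM) and 3.48-fold in lymphatic endothelial-like cells (549, 456 and 1761 CPM), where the log2 difference of 1.80 was 0.99 without cells above 50000 UMIs. Blood endothelial-like cells had 173, 85.3 and 284 CPM (2.12-fold, log2 difference 1.09, or 1.73 without PLV replicate 1 and 0.72 without PLV replicate 2, edgeR adjusted p = 0.0328). In Schwann-like cells (137, 189 and 588 CPM, 3.68-fold) 53.8% of the mixed library's Atf3 UMIs came from 1 cell.

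Jun was called in 4 classes. It was 1556, 1159 and 2640.1 CPM in muscle-like cells (1.94-fold, edgeR adjusted p = 0.0108) and 551, 688 and 1862 CPM in pericyte-like cells (2.96-fold, edgeR adjusted p = 1.13e-05). In lymphatic endothelial-like cells Jun was 2209, 2233 and 6936 CPM (3.11-fold), with 66.9% of the mixed library's UMIs in 3 cells. Schwann-like cells had 894, 1382 and 2144 CPM (1.86-fold). Jund, the member of the family that is expressed most steadily in resting cells, was called in lymphatic endothelial-like cells (1633, 1357 and 5513 CPM, 3.67-fold, edgeR adjusted p = 0.00471; log2 difference 1.88, or 1.07 without cells above 50000 UMIs) and in Schwann-like cells (1.88-fold, edgeR adjusted p = 0.0301).

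Fos, the founding immediate early gene, was called in pericyte-like cells alone. It was 1051 and 1351 CPM there in PLV and 2521 CPM in the mixed library (2.06-fold, edgeR adjusted p = 0.00907). In muscle-like cells Fos was 3938, 2499.6 and 3973 CPM, where the mixed library was level with the higher PLV pool (edgeR adjusted p = 0.571). Lymphatic endothelial-like cells had 3711, 2425 and 6963 CPM, a log2 difference of 1.17 ± 0.41 SE that was not called (edgeR adjusted p = 0.173). Fosb was called in Schwann-like cells (780.2, 741 and 1529 CPM, 1.95-fold), and Junb in pericyte-like cells (1087, 1059.6 and 2083 CPM, 1.90-fold). Both were uncalled in the other 5 classes.

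The EGR factors, zinc-finger proteins induced through serum response factor, were called higher in the mixed library in no class. Egr1 was called in none. It was 4077, 1974 and 2216 CPM in muscle-like cells and 3955, 2880.2 and 6301 CPM in lymphatic endothelial-like cells, and its log2 differences ran from -0.50 to 0.87. Egr2, a factor that Schwann cells need to make myelin, was lower in the mixed library in 3 classes. Schwann-like cells had 692 and 609.5 CPM in PLV and 208 CPM in the mixed library, 3.24-fold lower (edgeR adjusted p = 0.000432). In muscle-like cells Egr2 was 87.4, 36.9 and 26.4 CPM (log2 difference -1.35 ± 0.28 SE, edgeR adjusted p = 5.72e-05), and the difference was -0.48 without PLV replicate 1 and -1.74 without PLV replicate 2. Fibroblast-like cells had 18.4, 18.4 and 2.99 CPM (log2 difference -2.59). Egr3 was called lower in muscle-like cells (50.8, 23.4 and 20.4 CPM, edgeR adjusted p = 0.00852), with a log2 difference of -0.20 without PLV replicate 1 and -1.33 without PLV replicate 2.

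Nr4a1, Nr4a2 and Nr4a3 encode orphan nuclear receptors that are induced by cyclic AMP and calcium signals. Nr4a1 was lower in the mixed library in 3 classes. Muscle-like cells had 1753 and 848 CPM in PLV and 338 CPM in the mixed library, 3.87-fold lower (log2 difference -1.95 ± 0.31 SE, edgeR adjusted p = 4.21e-08), or -1.33 without PLV replicate 1 and -2.39 without PLV replicate 2. Fibroblast-like cells had 288, 348 and 104 CPM (3.04-fold lower, edgeR adjusted p = 0.00352). In Schwann-like cells Nr4a1 was 757, 415 and 244 CPM (2.56-fold lower, edgeR adjusted p = 0.00586). The mixed library lay below both PLV libraries in these 3 classes, but in lymphatic endothelial-like cells Nr4a1 was 316, 277 and 403 CPM and was not called. For Nr4a2 in muscle-like cells PLV replicate 1 stood apart, with 410.2 CPM against 88.7 in PLV replicate 2 and 91.9 in the mixed library. The fitted log2 difference of -1.50 (edgeR adjusted p = 9.52e-07) became 0.05 without that library and -2.17 without PLV replicate 2, so the call rests on it. Nr4a3 was 159, 77.6 and 85.4 CPM in muscle-like cells and was called in no class.

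Klf2 and Klf4 encode Krüppel-like factors that are kept high by flow in endothelium, and Klf6 a related factor induced by injury. Klf2 was lower in the mixed library in fibroblast-like cells, at 415, 211 and 106 CPM (3.01-fold, edgeR adjusted p = 0.0088, log2 difference -1.59, or -0.997 without PLV replicate 1 and -1.998 without PLV replicate 2). Klf6 was lower there too, at 506, 406 and 215 CPM (2.14-fold, edgeR adjusted p = 0.0435). In blood endothelial-like cells Klf4 was 1139.9, 1432 and 657 CPM (1.96-fold lower, edgeR adjusted p = 0.046). That call was lost when cells above 50000 UMIs were left out (log2 difference -0.93, adjusted p = 0.0616). Klf4 was higher in pericyte-like cells of the mixed library, at 65.7, 113 and 230.0 CPM (2.62-fold, edgeR adjusted p = 0.0371). Irf1, a factor of the interferon response, was called in muscle-like cells alone (85.5, 59.1 and 223 CPM, 2.99-fold higher, edgeR adjusted p = 2.99e-09). Myc, a growth regulator, was 101, 83.3 and 38.7 CPM in lymphatic endothelial-like cells, a log2 difference of -1.27 ± 0.33 SE that just missed the threshold (edgeR adjusted p = 0.051).

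The feedback inhibitors split by gene. Nfkbia, the inhibitor that NF-kappaB induces against itself, was higher in the mixed library in muscle-like cells (230.0, 158 and 514 CPM, 2.61-fold, edgeR adjusted p = 1.11e-06) and in pericyte-like cells (212, 178 and 609 CPM, 3.01-fold, edgeR adjusted p = 0.000598). Socs3, which blocks cytokine signalling through JAK and STAT3, was called in muscle-like (1.81-fold), pericyte-like (3.36-fold) and Schwann-like cells (2.24-fold, 354, 333 and 796 CPM). Dusp2, a nuclear MAP kinase phosphatase, reached tested levels in the endothelial classes alone and was higher in both. It was 399, 293 and 840.0 CPM in lymphatic endothelial-like cells (2.41-fold, edgeR adjusted p = 0.0174) and 47.1, 38.6 and 104 CPM in blood endothelial-like cells (2.36-fold, edgeR adjusted p = 0.00576). Dusp1 and Zfp36, both standard markers of dissociation, were called in no class, with log2 differences from -0.94 to 0.47 and from -0.75 to 0.39.

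Among the growth and damage response genes, Gadd45b and Gadd45g, which bind stress kinases and cell cycle proteins, differed most. Gadd45g was 357, 257 and 845 CPM in muscle-like cells (2.73-fold higher in the mixed library, edgeR adjusted p = 1.1e-06). It was 101, 152 and 718 CPM in fibroblast-like cells (5.80-fold, edgeR adjusted p = 1.98e-05) and 30.3, 72.8 and 338 CPM in pericyte-like cells (6.88-fold, edgeR adjusted p = 2.02e-07). In pericyte-like cells its log2 difference of 2.78 was 2.18 without PLV replicate 1 and 3.43 without PLV replicate 2. Lymphatic endothelial-like cells had 229, 146 and 112 CPM, which was not called (edgeR adjusted p = 0.265). Gadd45b was called in muscle-like cells (223, 208 and 519.6 CPM, 2.40-fold) and pericyte-like cells (106, 169.9 and 843 CPM, 6.16-fold, edgeR adjusted p = 1.28e-10).

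Ier5, an immediate early gene that acts on HSF1, was higher in the mixed library in muscle-like cells (72.8, 45.6 and 169 CPM, 2.72-fold, edgeR adjusted p = 8.22e-08) and in pericyte-like cells (2.95-fold, edgeR adjusted p = 0.021). Ier2 was higher in pericyte-like (2.45-fold) and Schwann-like cells (2.11-fold). The antiproliferative genes Btg1 and Btg2 were each called in 1 class. Btg1 was lower in Schwann-like cells (358, 547 and 199 CPM, edgeR adjusted p = 0.0428). Btg2 was higher in lymphatic endothelial-like cells (526, 465 and 1108 CPM, edgeR adjusted p = 0.0398). Ier3, a survival gene, was called in no class, with log2 differences from -0.60 in muscle-like to 1.46 in Schwann-like cells.

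Ccn1 and Rhob were lower in the mixed library where they were called. Ccn1, a matricellular protein and target of YAP and serum response factor, was 1838 and 1708 CPM in muscle-like cells of the PLV libraries and 758 CPM in the mixed library (2.34-fold lower, edgeR adjusted p = 0.00141). In pericyte-like cells it was 1354, 1165 and 532 CPM (2.43-fold lower, edgeR adjusted p = 0.00397). Fibroblast-like cells had 717, 354 and 169.9 CPM (log2 difference -1.67, or -1.06 without PLV replicate 1 and -2.11 without PLV replicate 2, edgeR adjusted p = 0.00827). The mixed library was below both PLV libraries in all 6 classes, though the other 3 were not called. Rhob, a small GTPase of the actin cytoskeleton with a short-lived mRNA, was called in muscle-like cells (573, 356 and 274 CPM, 1.71-fold lower, edgeR adjusted p = 0.0319).

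**Figure D3:**
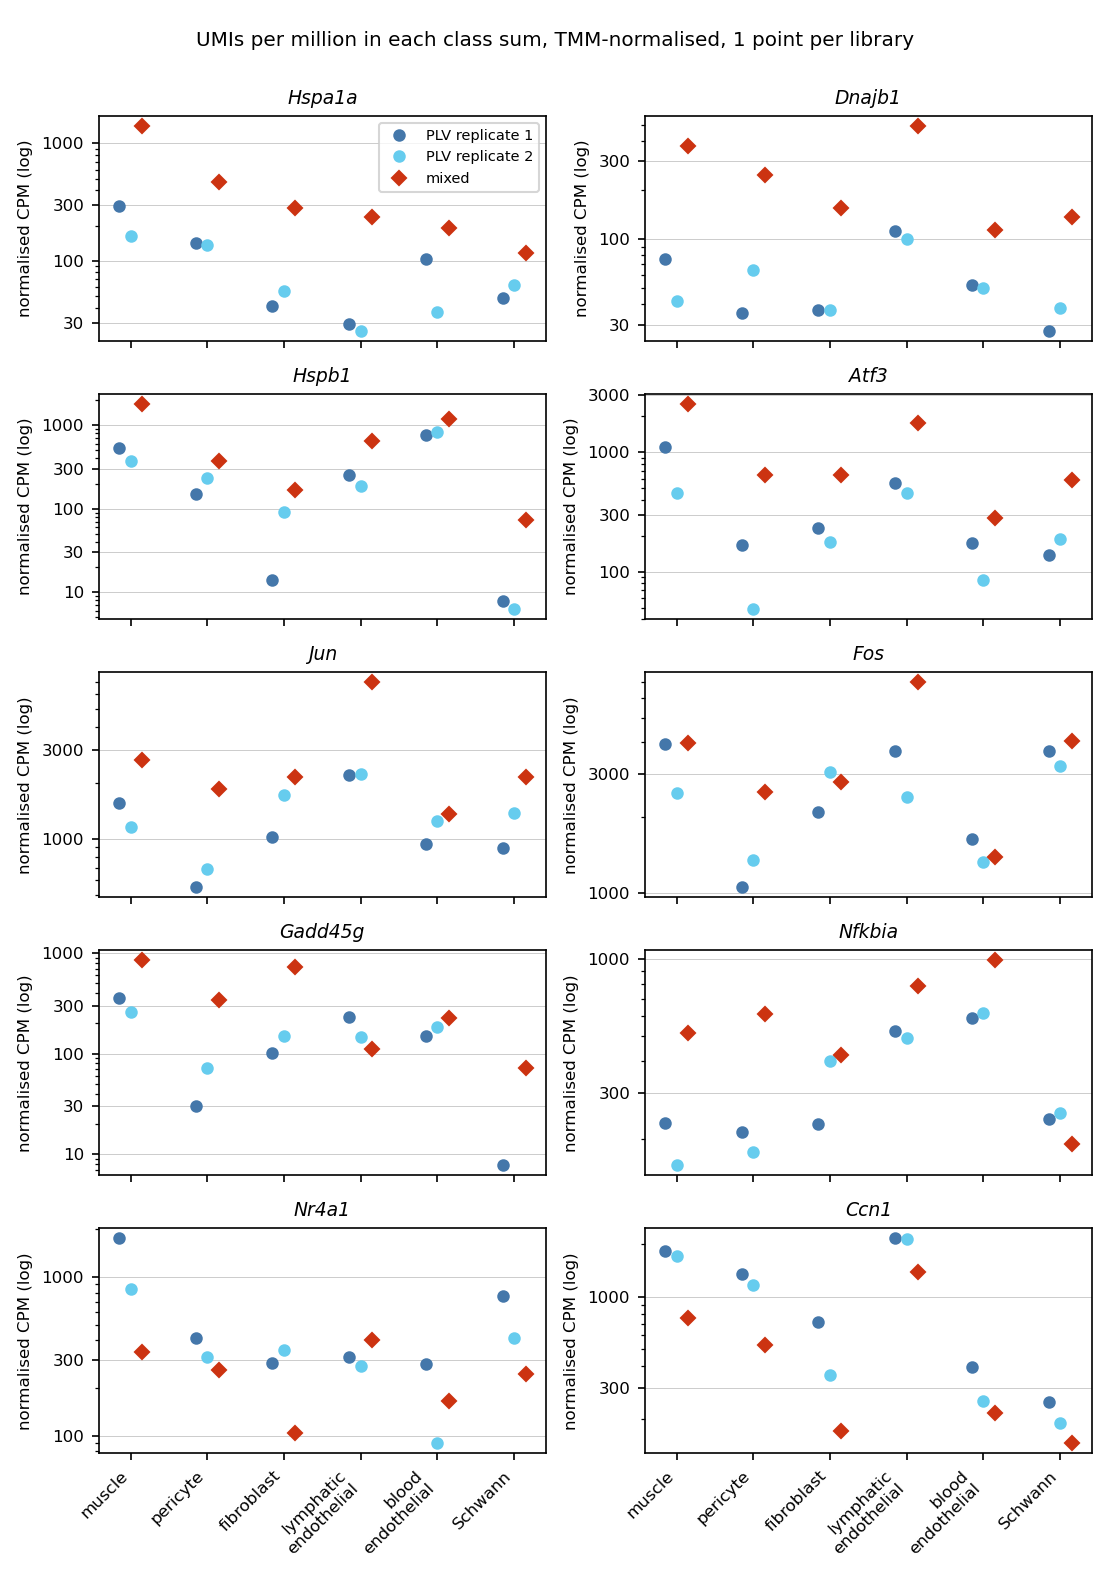
TMM-normalised CPM (log axis) of 10 of the 38 genes in the 6 classes, 1 point per library: PLV replicates 1 and 2 as circles and the mixed library as a diamond. Hspa1a, Dnajb1 and Atf3 of the mixed library lie above both PLV libraries in every class, and Ccn1 lies below both; Gadd45g had no UMI in Schwann-like cells of PLV replicate 2, a point that a log axis cannot show.

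Muscle-like cells held different clusters in the libraries, so 2 kinds of cluster found in all 3 were compared alone. Clusters with Hmcn2 among their leading genes (Hmcn2 clusters) had 140, 57 and 198 cells, and clusters with Pln, the gene of phospholamban, among theirs (Pln clusters) had 216, 54 and 59 cells. The gene with the largest fold in these was Actg2, Hmcn2 and Ntm, and Sorbs2, Pln and Pln, in PLV replicates 1 and 2 and the mixed library. A cluster of 74 cells led by P2rx1 was in the mixed library alone and entered neither. In unscaled CPM it had 2809 of Hspb1, against 1066 in the Hmcn2 and 914 in the Pln cluster of that library. Hspa1a was 1924 there (862 and 1220) and Nfkbia 928 (103 and 687), while Jun, at 2339 (2101 and 3367), was higher in the Pln cluster. The part of this cluster in the muscle-like differences was not tested. In Hmcn2 clusters 16 of 37 members were higher in the mixed library and 3 lower, where 5.76% of all genes were called, and in Pln clusters 15 were higher and 3 lower, against 3.73%. In both kinds 10 members were higher (Hspa1a, Hspa1b, Dnajb1, Hsph1, Hspb1, Atf3, Gadd45b, Gadd45g, Ier5 and Socs3) and 2 were lower (Nr4a1 and Ccn1). The share of all genes called alike in both kinds was not counted, and both kinds came from the same 3 libraries, so their calls are not independent. Hspa1a was 372, 283 and 982 CPM in Hmcn2 clusters (log2 difference 1.56) and 247, 80.6 and 1313 CPM in Pln clusters (log2 difference 2.93). Gadd45b had log2 differences of 3.10 and 2.16, and Nr4a1 -1.23 and -1.43, in the same order. Some members were called in 1 kind only, which does not show that the kinds differ. Irf1 was 130, 84.8 and 645 CPM in Pln clusters (log2 difference 2.53), with 0.61 in Hmcn2 clusters (edgeR adjusted p = 0.488). Nr4a3 and Ier3 were higher in Hmcn2 clusters (1.54 and 1.85), and Egr3 and Nr4a2, called lower over all muscle-like cells, had differences of 0.57 and 0.67 there that were not called. Klf2 and Btg2 were higher in Pln clusters (1.12 and 1.10) and not called in Hmcn2 clusters (0.82 and 0.75). Jun and Rhob, called over all muscle-like cells, were called in Pln clusters (1.53 and -1.23) but not in Hmcn2 clusters (0.65 and -0.31).

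**Figure D4:**
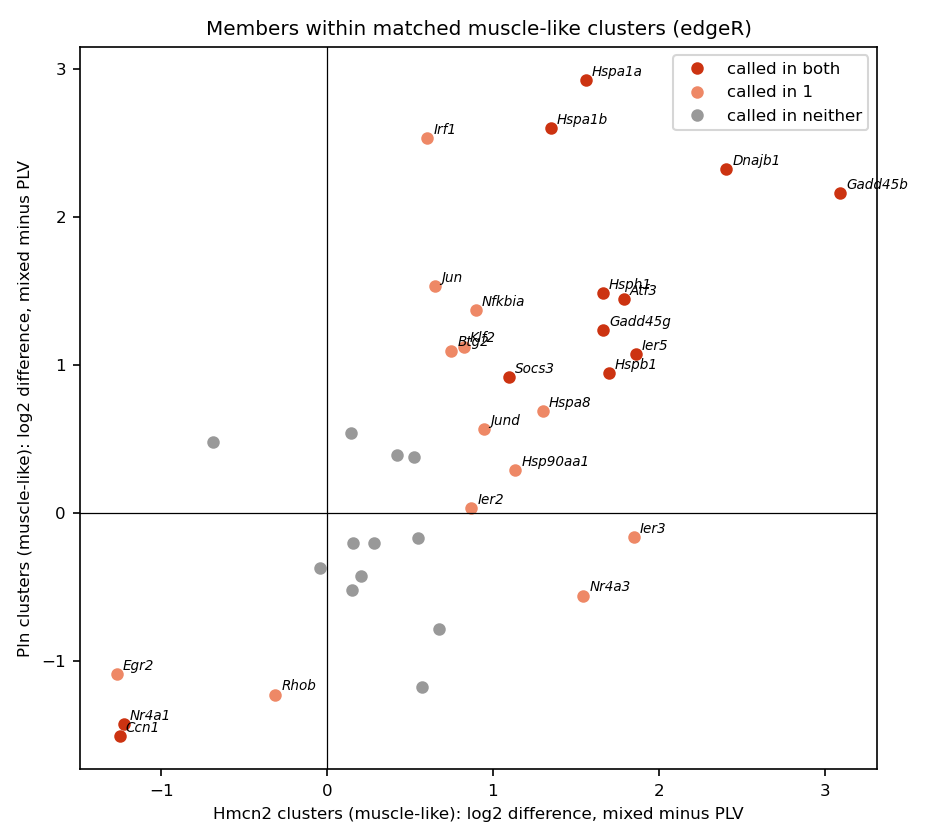
Log2 difference (mixed over PLV, edgeR) of the members in Hmcn2 clusters and in Pln clusters of muscle-like cells, 1 point per gene, coloured by whether it was called in both kinds, in 1 or in neither. The 10 members higher in both kinds, among them Hspa1a (1.56 and 2.93) and Gadd45b (3.10 and 2.16), lie in the upper right, and Nr4a1 and Ccn1 in the lower left.

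Whether the difference between PLV and mixed was itself unlike between classes was tested with a class-by-library interaction over the 6 classes. For 13 of 38 members it was, where 3.51% of all genes tested were called: Junb, Nr4a1, Nr4a2, Klf2, Klf4, Klf6, Irf1, Nfkbia, Ier3, Ier5, Gadd45b, Gadd45g and Hspa1a. Gadd45g had the smallest p (edgeR adjusted p = 4.95e-07), with log2 differences from -0.76 in lymphatic endothelial-like to 2.78 in pericyte-like cells. Klf2 ran from -1.59 in fibroblast-like to 1.35 in pericyte-like cells (edgeR adjusted p = 0.00251). Atf3 and Dnajb1, called in 6 and 5 classes, were not among them (edgeR adjusted p = 0.653 and 0.245). DESeq2 called 5 members in place of 13.

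Within the PLV libraries alone, digested alike, the members differed between classes in level: 37 of 38 passed an F test over the 6 classes with the library as a block, all but Hsp90aa1 (edgeR adjusted p = 0.0738), where 62.2% of all genes passed. These levels are unscaled CPM. Lymphatic endothelial-like cells had 27 members above the mean of the other classes and 5 below, where 19.6% of all genes were above and 11.1% below, and held the highest mean of 18 members. How many of all genes had their highest mean there was not counted. Cells above 50000 UMIs held 45.5% and 22.4% of this class's UMIs in PLV replicates 1 and 2, and these counts were not made without them. Muscle-like cells had 17 above and 4 below (19% and 11.2% of all genes), and fibroblast-like cells 11 and 6 (20.4% and 9.87%). Pericyte-like cells had 2 above and 13 below (7.63% and 3.45%), Schwann-like cells 5 above and 15 below (16.3% and 15.2%), and blood endothelial-like cells 9 and 8 (18% and 8.9%).

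Several members stood far above the mean of the other classes in PLV. Egr2 was 748 and 621 CPM in Schwann-like cells of the PLV libraries, a log2 difference of 5.03 ± 0.20 SE from the mean of the other classes, and Nr4a2 was 1353 and 589 CPM there (4.27 ± 0.25 SE). Muscle-like cells led in Nr4a3 (169.9 and 80.4 CPM, 4.62 ± 0.26 SE), Nr4a1 (1876 and 879 CPM, 1.96), Atf3 (1176 and 477 CPM, 2.02), Gadd45g (382 and 267 CPM, 2.29) and Hspa1a (316 and 169.6 CPM, 2.03). In each of these the pool labelled replicate 1 was the higher. Atf3 in PLV replicate 2 was no higher in muscle-like than in lymphatic endothelial-like cells, so it was not tied to muscle-like cells alone. Dusp2 was a gene of the endothelial classes, with 418 and 309 CPM in lymphatic (7.50 ± 0.25 SE) and 49.9 and 39.0 CPM in blood endothelial-like cells (3.89 ± 0.42 SE). Fitted differences of Dusp2, Nr4a2 and Nr4a3 depend on how classes at or near 0 UMIs are treated. Klf2 was 1321 and 1424 CPM in lymphatic and 1082 and 1143 CPM in blood endothelial-like cells (2.58 and 2.25), and Klf4 was 1796 and 2304 CPM in lymphatic endothelial-like cells and 1973 and 1702 CPM in fibroblast-like cells (2.31 in both). Hspb1 ran from 8.46 and 6.40 CPM in Schwann-like cells to 812 and 838 CPM in blood endothelial-like cells. Hspa1a was lowest in lymphatic endothelial-like cells, at 30.6 and 26.8 CPM, where Dnajb1 had its highest level (118 and 105 CPM). Fos was between 2480 and 4216 CPM in muscle-like, fibroblast-like, lymphatic endothelial-like and Schwann-like cells, and 1167 and 1374 CPM in pericyte-like cells (-1.37 ± 0.21 SE). Neighbours in this order overlapped: for Fos, muscle-like (4216 and 2589 CPM), lymphatic endothelial-like (3890.3 and 2559.7 CPM) and Schwann-like cells (3976 and 3265 CPM) did not separate beyond the gap between the libraries.

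**Figure D5:**
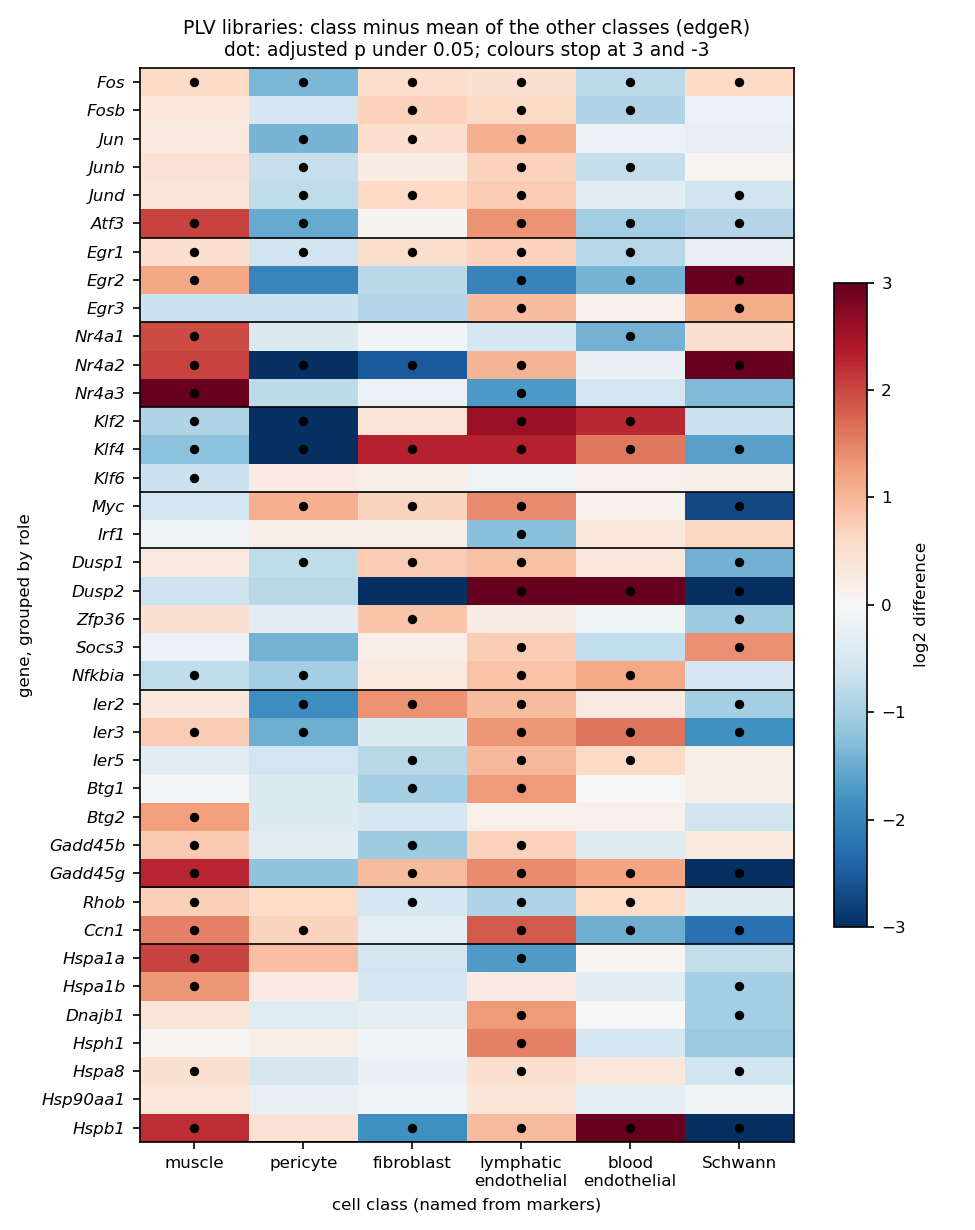
Log2 difference of each member in each class of the PLV libraries from the mean of the other 5 classes (edgeR, library block), with genes grouped by role, dots at an adjusted p under 0.05 and colours that stop at 3 and -3. Egr2 and Nr4a2 stand out in Schwann-like cells (5.03 and 4.27), Nr4a3 in muscle-like cells (4.62) and Dusp2 in lymphatic endothelial-like cells (7.50).

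Genes of the same pathways that are not members were read from 4 lists with 86 genes. In muscle-like cells 16 of 79 tested were higher in the mixed library and 9 lower: 8 and 6 of 30 other immediate early genes, 6 and 0 of 18 other cytosolic heat shock genes and cochaperones, 2 and 1 of 14 endoplasmic reticulum stress genes, and 0 and 2 of 17 upstream regulators, where 8.22% of all genes were higher and 7.39% lower. Pericyte-like cells had 8 of 58 higher and none lower (2.49% and 0.755% of all genes), fibroblast-like cells 2 of 80 higher and 5 lower (7.61% and 4.02%), and Schwann-like cells 3 of 43 higher and 2 lower (2.38% and 1.66%). In lymphatic endothelial-like cells 1 of 76 was called, lower (0.54% of all genes), and in blood endothelial-like cells 1 of 79 was higher and 1 lower (1.6% and 1.33%). In fibroblast-like, lymphatic endothelial-like and blood endothelial-like cells these counts lay near or below the background. Hsp90ab1, the constitutive HSP90, was higher in 4 classes, among them muscle-like cells (559, 621 and 1376 CPM, log2 difference 1.22). Cryab, a small heat shock protein, was higher in muscle-like, fibroblast-like (81.6, 67.6 and 254 CPM, log2 difference 1.74) and Schwann-like cells, and the cochaperone genes Ahsa1 and Dnaja1 in 2 classes each. The cytokine genes Il6 and Cxcl1 were higher in muscle-like and pericyte-like cells. Il6 in pericyte-like cells was 50.5, 8.09 and 257 CPM, which is 10, 1 and 57 UMIs, and Cxcl1 was 62.0, 13.5 and 174 CPM in muscle-like cells. Ccl2, the monocyte chemokine, had 0 UMIs in muscle-like cells of both PLV libraries, where a count of 0 allows up to 3, and 117 UMIs in the mixed library; it was also higher in pericyte-like cells, at 6, 0 and 52 UMIs. Cebpd, an acute phase factor, was higher in muscle-like, pericyte-like and Schwann-like cells. On the other side, the clock gene Per1 was lower in the mixed library in muscle-like (176, 106 and 55.0 CPM, log2 difference -1.40), fibroblast-like and Schwann-like cells. Bhlhe40, Errfi1 and Sgk1, which respond to hypoxia, growth factors and glucocorticoids, were each lower in 2 classes.

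Other promoter motifs were searched in the same 250-base RefSeq windows, on both strands. The cyclic AMP element TGACGTCA was in Dusp1 and Btg2, against 1.55% of all windows, and the serum response element called the CArG box was in Egr2 and Zfp36, against 1.47%. The AP-1 site TGANTCA was in none of the 32 windows, against 6.75%. CCAAT was in 16 of 32, against 33.8% of all windows. A match describes letters in this window and not a bound site.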

How the data were processed

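The data were single-cell gene expression tables of 3 libraries, and the hashtag library of the mixed sample was not analysed here beyond the expression table. The deposited values are counts of UMIs per gene and barcode, not normalised. They came from Cell Ranger 6.1.2 (PLV) and Cell Ranger 4 (mixed) per the file headers, on GRCm38 per the submitters' processing notes. Counting options are not stated in the labels or headers. The 38 genes and the companion lists were chosen with earlier results of these data known, as were the filters.

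A barcode was taken as a cell from 500 UMIs and 300 genes upward, if mitochondrial genes made up no more than 15% and haemoglobin genes no more than 20% of its UMIs. The last limit alone removed 27, 1 and 8 barcodes. The deposited tables held 2649, 730 and 896360 barcodes (PLV replicates 1 and 2, mixed). Predicted doublets were left out (10, 3 and 3), and undetected ones remain possible. Median UMIs per kept cell were 3372, 4886.5 and 6162. Each library was clustered alone in scanpy 1.11.5 (Leiden with leidenalg 0.10.2 at resolution 1, on 15 neighbours in 50 components of 2000 variable genes), without the 38 genes and the companion genes. A cluster was named "X-like" where 3 or more markers of a class exceeded the remaining cells 2-fold, after 20 CPM were added to both, and no other class was favoured by its 10 leading genes.

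UMIs were summed per library and class and tested in edgeR 4.0.16 (TMM factors, filterByExpr, quasi-likelihood F test, Benjamini-Hochberg adjustment over all genes tested) under R 4.3.3. DESeq2 1.42.0 was the alternative tool. The mixed library has no replicate, and its spread was taken from the PLV pools. Classes within PLV were tested with the library as a block, which pairs the classes because they come from the same pool. Differences between classes in the PLV to mixed contrast were tested as an interaction.

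Members were described where called in at least 1 class (at least 10 UMIs in a class sum), by the number of classes and the size of the difference, with the member of highest level in each role. The test was checked on simulated counts, with a 4-fold change put into 200 genes. It recovered 81.5% in muscle-like sums (10381 genes, 4.12% of calls false), 61% in pericyte-like (4141 genes, 7.58%), 55.5% in fibroblast-like (10338 genes, 1.77%), 72.5% in lymphatic endothelial-like (8972 genes, 7.05%), 76% in blood endothelial-like (10127 genes, 5.59%) and 61% in Schwann-like sums (3691 genes, 4.69%). The simulated counts were drawn with 1 spread for all genes of a class, equal in PLV and mixed, as the test assumes. The rates therefore do not cover a mixed library that varies otherwise. Promoter windows and motif shares came from RefSeq on GRCm38.p6. Alternatives covered normalization, filters, clustering, depth per cell and leaving out each PLV library.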

Additional observations from a re-analysis of the deposited data

Results flagged for a closer look

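For 13 members the difference between the mixed and the PLV libraries was itself unlike between the 6 classes (edgeR interaction test, adjusted over all genes tested). The values below are log2 differences of mixed over PLV from the fits within each class. Gadd45g (adjusted p = 4.95e-07) ran from -0.76 in lymphatic endothelial-like to 2.78 in pericyte-like cells. Gadd45b (adjusted p = 0.00019) ran from -0.18 in lymphatic endothelial-like (-2.40 without cells above 50000 UMIs) to 2.62 in pericyte-like cells. Nr4a1 (adjusted p = 0.000599) ran from -1.95 in muscle-like to 0.43 in lymphatic endothelial-like cells. Nr4a2 (adjusted p = 0.00192) ran from -1.50 in muscle-like to 0.84 in lymphatic endothelial-like cells, where the muscle-like value rests on PLV replicate 1. Klf2 (adjusted p = 0.00251) ran from -1.59 in fibroblast-like to 1.35 in pericyte-like cells, and Klf6 (adjusted p = 0.00668) from -1.09 in fibroblast-like to 0.51 in lymphatic endothelial-like cells. Klf4 (adjusted p = 0.036) was called in both directions, from -0.97 in blood endothelial-like to 1.39 in pericyte-like cells. Ier3 (adjusted p = 0.00931) ran from -0.60 in muscle-like to 1.46 in Schwann-like cells and was called in no class. Ier5 (adjusted p = 0.0336) ran from -0.74 in Schwann-like to 1.56 in pericyte-like cells. Nfkbia (adjusted p = 0.0397) ran from -0.40 in Schwann-like to 1.59 in pericyte-like cells. Irf1 (adjusted p = 0.0414) ran from -0.34 in lymphatic endothelial-like to 1.58 in muscle-like cells, and Junb (adjusted p = 0.0388) from -0.31 in Schwann-like to 1.07 in lymphatic endothelial-like cells. Hspa1a (adjusted p = 0.0318) was positive in all 6 classes, though not called in Schwann-like cells, and ran from 1.10 in Schwann-like to 3.08 in lymphatic endothelial-like cells, a value that rests on a few cells above 50000 UMIs.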

How the results depend on the processing

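No paired analysis was possible because the mixed library came from another pool of mice than the PLV libraries. For classes within PLV, 37 of 38 members passed with the replicate block and 36 without it. Called members are given below in the order muscle-like, pericyte-like, fibroblast-like, lymphatic endothelial-like, blood endothelial-like and Schwann-like, against 20, 16, 12, 10, 7 and 9 in the report. DESeq2 called 10 in muscle-like and 0 in pericyte-like, blood endothelial-like and Schwann-like cells (12, 9 and 7 there at an unadjusted p under 0.05). Cells thinned to 1500 UMIs gave 5, 2, 12, 6, 0 and 1 (4 in blood endothelial-like cells unadjusted, edgeR). Without normalization factors 10 were called in pericyte-like, 4 in lymphatic endothelial-like and 4 in Schwann-like cells. Without the filter on low counts it was 10 in pericyte-like and 4 in Schwann-like cells. At least 1000 UMIs per cell gave 7 in pericyte-like and 0 in blood endothelial-like cells (13 unadjusted, edgeR). At most 10% mitochondrial UMIs gave 0 in blood endothelial-like (14 unadjusted, edgeR) and 15 in Schwann-like cells. Leiden resolution 0.5 gave 3 and 15 in these classes, and resolution 2 gave 9 in muscle-like, 5 in pericyte-like and 4 in blood endothelial-like cells. At resolution 0.5 and at 10% mitochondrial UMIs no pericyte-like class was named in all 3 libraries. With predicted doublets kept, 4 were called in blood endothelial-like cells; sums thinned to the smallest gave 6 in fibroblast-like cells, and a joint fit over classes 2 in Schwann-like cells. The interaction test called 13 members, 5 with DESeq2, 21 without the low count filter and 21 at resolution 2.

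Companion genes (25, 8, 7, 1, 2 and 5 in the report) moved likewise. DESeq2 called 2, 0, 2, 0, 1 and 0 (13, 4, 4, 7, 4 and 3 unadjusted). Cells thinned to 1500 UMIs gave 0 in muscle-like, 2 in pericyte-like, 2 in lymphatic endothelial-like, 0 in blood endothelial-like and 0 in Schwann-like cells (15, 4, 8, 3 and 7 unadjusted, edgeR). Sums thinned to the smallest gave 16, 5 and 2 in the first 3 classes and 3 in Schwann-like cells. Without normalization factors it was 5 in pericyte-like, 16 in fibroblast-like and 3 in Schwann-like cells, and RLE factors gave 4 in fibroblast-like cells. A joint fit gave 13 in fibroblast-like and 0 in Schwann-like cells (15 unadjusted, edgeR), and no low count filter 1 in Schwann-like cells. At least 1000 UMIs gave 3 in pericyte-like and 0 in blood endothelial-like cells (14 unadjusted, edgeR). At most 10% mitochondrial UMIs and resolution 0.5 each gave 0 in blood endothelial-like (15 and 18 unadjusted, edgeR) and 11 in Schwann-like cells. Resolution 2 gave 2 in muscle-like, 4 in pericyte-like and 1 in blood endothelial-like cells, doublets kept 1 in the last, and leaving out cells above 50000 UMIs 3 in lymphatic endothelial-like cells. Hmcn2 clusters alone gave 12 and Pln clusters 7 in muscle-like cells. The cause of these moves was not tested.

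Of the 74 called member differences, 60 passed in the joint fit and 68 without cells above 50000 UMIs. Reversed values were Egr3 in Hmcn2 clusters of muscle-like cells (0.57) and Nr4a2 there (0.67) and without PLV replicate 1 (0.051, against -2.17 without PLV replicate 2). Without 1 PLV library at a time, the median member difference ran from -0.00 to 0.72 in muscle-like, 0.88 to 1.10 in pericyte-like, -0.03 to 0.43 in fibroblast-like, 0.71 to 0.81 in lymphatic endothelial-like, 0.04 to 0.19 in blood endothelial-like and 0.10 to 0.53 in Schwann-like cells. In these refits 1 library stood against 1, so they give values with no test. At 1500 UMIs a cell the shares of cells with an Hspa1a UMI (PLV replicates 1 and 2, mixed) were 30.5%, 20.6% and 59.7% in muscle-like, 7.67%, 5.71% and 23.0% in fibroblast-like and 1.35%, 3.08% and 4.17% in lymphatic endothelial-like cells. The alternatives with other depths per cell, without normalization factors and in matched muscle clusters were chosen after seeing the data.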
